A study of Mus musculus with 18 samples.

Results

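Of 18193 mouse genes with a probe set of their own on the array, 10 genes of the endoplasmic reticulum (ER) stress response were followed across colitis-associated carcinogenesis. They were taken by symbol, with earlier results of these data known: Ern2, Xbp1, Atf4, Ddit3, Trib3, Hspa5, Dnajb9, Sdf2l1, Creld2 and Herpud1. They have 20 probe sets that are annotated to 1 gene each, 19 of these passed the filter on low signals, and all 10 genes were among the 12877 tested. Each gene is represented by its brightest probe set. The values are hybridisation signals, and comparisons were made on log2(signal + 16).

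The samples are colorectal tissue of male ICR mice, an outbred stock, 6 weeks old at the start, with 18 arrays in 6 groups of 3. On day 1 treated mice received 10 mg/kg of azoxymethane (AOM), a carcinogen. Dextran sulphate sodium (DSS), an agent toxic to colonic epithelium, followed in cycles of 2% on days 8 to 14, 1.5% on days 29 to 33 and 1.5% on days 50 to 54, up to the day of sampling. The groups are inflamed mucosa at 2 weeks (day 14, after the 2% cycle), low grade dysplasia (LGD) at 4 weeks (day 28), high grade dysplasia (HGD) at 6 weeks (day 42), HGD with active inflammation at 8 weeks (day 56) and carcinoma at 20 weeks (day 140), against normal mucosa of mice given saline and plain water (day 14). Only the 2-week group has controls of its own age, so in the 4 later groups stage and age cannot be told apart, nor can AOM and DSS in any group. The labels call the arrays biological replicates, and whether tissue was pooled is not given in the sources used here.

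Proteins that enter the ER must fold there, and when unfolded protein accumulates 3 membrane sensors start the unfolded protein response. IRE1 splices the Xbp1 messenger so that it encodes an active transcription factor. PERK phosphorylates eIF2alpha, which slows translation in general but favours that of ATF4, and ATF4 raises Ddit3 (CHOP) and Trib3. ATF6 is released from the membrane by proteolysis and, with XBP1, drives chaperone genes. The gut epithelium has an IRE1 of its own, IRE1beta, encoded by Ern2 and known from goblet cells, whose mucin load places heavy demands on the ER. An array reads messenger level, so Xbp1 splicing, eIF2alpha phosphorylation and ATF6 cleavage were not measured here.

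In these data the clearest differences stood at 2 weeks. Atf4, Hspa5, Dnajb9 and Creld2 were higher in inflamed than in normal mucosa, and Ern2 was 9.13-fold lower. Xbp1, Ddit3, Trib3, Sdf2l1 and Herpud1 did not pass the test there. Of all genes 46.9% were called at 2 weeks, so the members' 5 of 10 is near the background. Against normal mucosa 0 of 10 members were called at 4 weeks (5.69% of all genes), 0 at 6 weeks (1.14%), 1, Ern2, at 8 weeks (11.3%) and 0 at 20 weeks (0.901%). By direction, the shares of all genes called higher and lower were 22.6% and 24.3% at 2 weeks, 2.61% and 3.08% at 4 weeks, 0.621% and 0.52% at 6 weeks, 4.84% and 6.42% at 8 weeks and 0.326% and 0.575% at 20 weeks. Across the 6 groups, 5 members differed by limma's moderated F test: Ern2 (adjusted p = 6.65e-05), Atf4 (4.78e-04), Ddit3 (0.0016), Dnajb9 (0.00473) and Hspa5 (0.0176). Of all genes tested, 45.3% passed that F test.

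Some arrays stand apart, and they bear on what follows. The medians of the 18 arrays agree closely, between 55.7 and 57.8. Correlations between replicates ran down to 0.859, in the 8-week group. LGD replicate 2 had a log2 ratio of 1.63 between the 3′ and 5′ control probe sets of Gapdh, where the other 17 arrays lay between -0.08 and 0.16. The tissue is labelled colorectum on every array, but the summed signal of 15 epithelial markers lay between 66216 and 70892 in normal mucosa and between 1365 and 31499 in inflamed mucosa, lowest in inflamed replicate 2. That array had signals of 27.4 for Vil1, 16.2 for Esrp1 and 14.2 for Ocln, below the table median of 56.6, so defining epithelial markers were nearly absent there. LGD replicate 1 had a summed neutrophil signal of 71394, inside the inflamed range of 45114 to 85599, against 7729 and 1422 in the other LGD arrays. The 8-week HGD arrays were uneven too, at 29239.8, 2716.6 and 16821.3 for replicates 1, 2 and 3. Replicate 2 of that group lay below the 6-week HGD range of 4431.7 to 13055.8 and above the normal range of 820.7 to 870.1. All 15 epithelial markers and 13 of 15 goblet markers were lower at 2 weeks, while 14 of 14 neutrophil, 11 of 12 macrophage and 8 of 10 fibroblast markers were higher. Of 10 plasma and B cell markers, which mark cells with heavy protein secretion, 3 were higher and none lower at 2 weeks, with array means 0.43, 0.88 and 0.67 above normal and summed signals of 19652 to 28543 against 14871 to 18626. The rises of Atf4, Hspa5, Dnajb9 and Creld2 and the fall of Ern2 at 2 weeks were measured in the same arrays as all these shifts. In bulk tissue, fewer cells of a type and less RNA per cell cannot be told apart. The part that these shifts in tissue make-up have in the members' values was not tested.

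**Figure D1:**
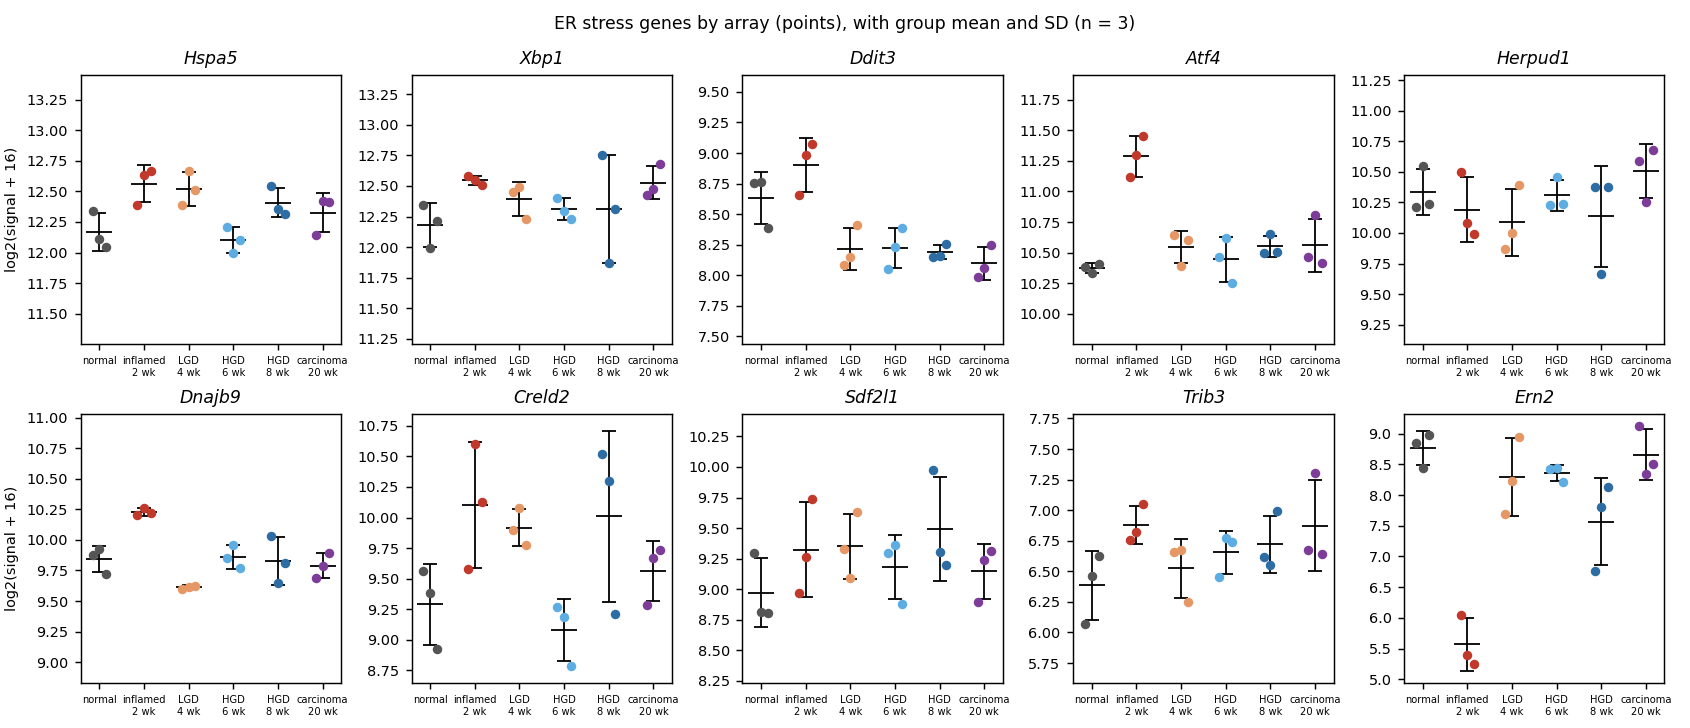
Log2(signal + 16) of the 10 ER stress genes, a panel per gene, with 1 point per array (3 per group) and the group mean with its SD. Ern2 falls farthest, to signals of 22.2 to 50.5 in inflamed mucosa, while the inflamed arrays of Atf4 lie above all other arrays of that gene.

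3 members carry, close to their start, a sequence of the kind that ATF6 and XBP1 are known to bind, and these stretches are shown because Hspa5, Creld2 and Herpud1 are textbook targets of those factors. Promoters were read from RefSeq (GRCm38.p6) as 250 bases before to 50 after the start. 9 of the 10 members have an entry, and Ern2 has none. 4 motifs were searched on both strands: the ER stress element ERSE (CCAAT, any 9 bases, then CCACG), ERSE-II (ATTGG, any 1 base, then CCACG), the core of the unfolded protein response element (TGACGTGG) and the composite site of ATF4 and C/EBP factors (TGATGNAA). In each line, written along the gene's strand, the match is in capitals.
Hspa5 (chr2:34771980-34772088, plus strand): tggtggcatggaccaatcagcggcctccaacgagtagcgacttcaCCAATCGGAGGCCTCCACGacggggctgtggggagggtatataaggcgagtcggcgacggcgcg
Creld2 (chr15:88819475-88819583, plus strand): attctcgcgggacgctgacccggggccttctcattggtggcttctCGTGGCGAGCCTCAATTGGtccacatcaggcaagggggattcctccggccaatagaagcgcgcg
Herpud1 (chr8:94386332-94386428, plus strand): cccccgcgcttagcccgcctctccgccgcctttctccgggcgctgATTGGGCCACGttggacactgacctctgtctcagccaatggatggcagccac
The Hspa5 match is an ERSE at -65 to -47 from the start. The Creld2 match is an ERSE on the opposite strand at -126 to -108. The Herpud1 match is an ERSE-II at -52 to -42, and Herpud1 also has the composite motif on the opposite strand at -112 to -105. Trib3 has the composite motif on the opposite strand at 15 to 22 after the start. No motif was found in the windows of Xbp1, Atf4, Ddit3, Dnajb9 and Sdf2l1. Among all 32851 promoters of the table, 0.119% held ERSE, 0.0365% ERSE-II, 0.676% the TGACGTGG core and 3.97% the composite motif. These are matches of letters and not measured binding.

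Among the members called at 2 weeks, Hspa5 and Creld2 have an ERSE match, Atf4 and Dnajb9 have none, and Ern2 has no promoter entry. Herpud1, with its ERSE-II match, did not pass in any of the 10 comparisons.

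Ern2, the epithelial IRE1beta, had the largest change of the 10. Its signals were 446, 333 and 488 in normal mucosa and 50.5, 26.1 and 22.2 in inflamed mucosa, so the groups are far apart. The log2 change was -3.19 ± 0.36 (SE, n = 3 per group, limma adjusted p = 1.03e-05), a fall of 9.13-fold. The inflamed signals lie below the median of the whole table, 56.6, and the size of the change therefore rests on the constant added before the logarithm. It was -3.71 with a constant of 1 and -2.33 with 64. Without inflamed replicate 2 it was -3.10 (adjusted p = 8.81e-05).

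By 4 weeks Ern2 had returned toward the normal range, unevenly. The LGD signals were 191, 286 and 479, and 6-week HGD gave 327, 333 and 281. LGD was higher than inflamed mucosa by 2.73 ± 0.36 on the log2 scale (adjusted p = 6.19e-05), and against normal mucosa it was -0.46 (adjusted p = 0.45, 95% interval -1.23 to 0.30). At 8 weeks, after the DSS cycle that ended on day 54, the signals were 93.2, 207 and 264, all below the normal arrays. That fall of 1.19 ± 0.36 on the log2 scale (adjusted p = 0.0463) was called narrowly. The call was lost when any of 13 of the 18 arrays was left out, among them every normal array, HGD replicates 1 and 2 of 8 weeks and all 3 arrays of 6 weeks, with log2 values between -1.47 and -0.79 and adjusted p up to 0.126. Carcinoma, at 542, 307 and 349, overlapped normal mucosa. In order of group means the Ern2 signal was highest in normal mucosa (423), then carcinoma (399), LGD (319), HGD at 6 weeks (314), HGD at 8 weeks (188) and inflamed mucosa (32.9). Neighbours in the first 4 places differed by less than their spread, and inflamed mucosa was separate from all other groups.

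Goblet and epithelial markers moved in the same arrays. As the mean log2 difference from normal, the 15 goblet markers were at -1.99, -5.52 and -3.25 in the inflamed arrays, and the epithelial markers at -1.50, -4.92 and -2.72. In LGD the goblet mean was -1.34, -1.22 and 0.14, in the same order as Ern2. Without LGD replicate 1, which also had the lowest Ern2 signal of its group, the Ern2 difference between LGD and normal mucosa was -0.16 (adjusted p = 0.876). In 8-week HGD the goblet mean was -1.05, -1.12 and -0.86, while the epithelial mean was -0.50, -0.43 and -0.34. The order differed there, with Ern2 lowest in replicate 1 and the goblet mean lowest in replicate 2. The lowest goblet marker signal was 8, for Clca1 in inflamed replicate 2, against 12273.3, 11434.5 and 16698.5 in normal mucosa. That signal lay below the table median of 56.6, and the lowest signal of the whole table was 3.39. Of 3 pancreatic acinar markers tested, Cela1 was lower at 2, 4 and 8 weeks and the others were not called. The summed signal was 5068 to 5612 in normal mucosa, 531 to 743 in inflamed mucosa and 1012 to 2602 at 8 weeks. That sum is mostly Cela1 itself, which gave 5265, 5512 and 4948 in normal and 617, 557 and 415 in inflamed mucosa. Ctrb1 was as low as 41.8 in normal mucosa, so the sum is no measure of the 3 markers together. The part of any of these markers in the Ern2 values was not tested.

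**Figure D2:**
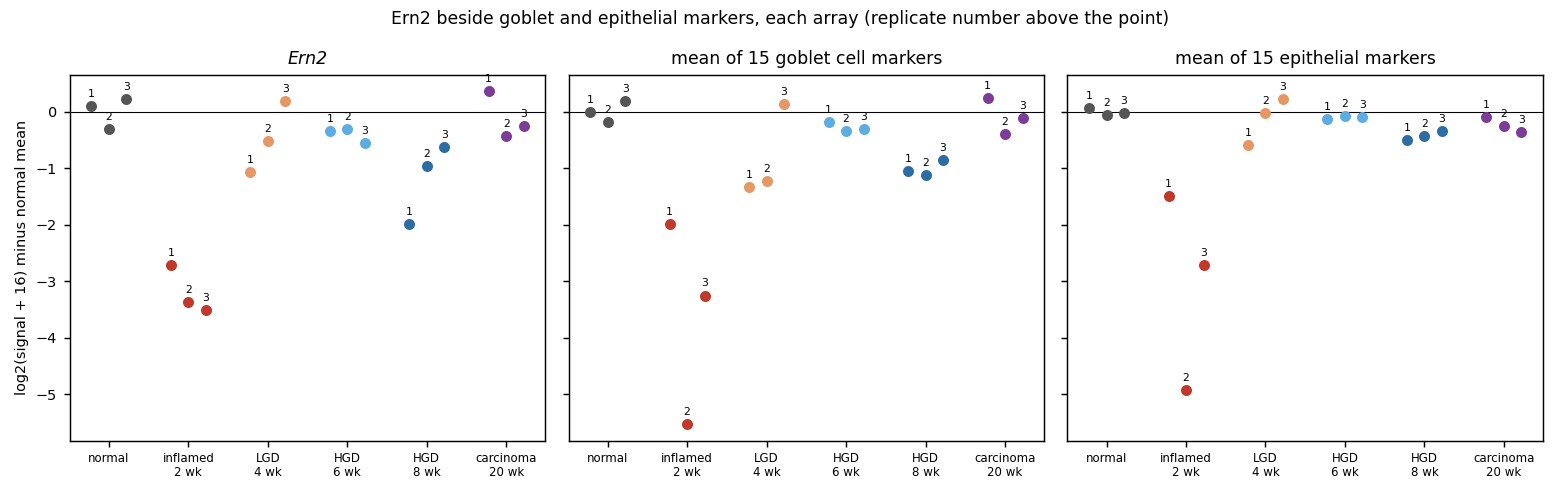
Difference from the normal mean in log2(signal + 16) for Ern2, for the mean of 15 goblet markers and for the mean of 15 epithelial markers, on every array with its replicate number above the point. All 3 inflamed arrays are low in each panel, while Ern2 is lowest in replicate 3 and the marker means in replicate 2.

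The genes most like Ern2 over the 18 arrays were Sytl2 (r = 0.982), Ano1 (0.98), Elapor1 (0.977), Cbs (0.977) and Galnt4 (0.973). After removal of the group means the correlations were between 0.823 and 0.953, with Sytl2 the highest. Sytl2 is on the goblet marker list, and the arrays share their tissue make-up, so the values are a description.

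Ern1 (IRE1alpha) had log2 changes against normal mucosa between -0.46 and -0.27 in the 5 stages, and none was called. Eif2ak3 (PERK) had changes between -0.12 and 0.34, also with no call. Atf6 rose by 0.41 ± 0.12 at 2 weeks (adjusted p = 0.0102), a call lost without inflamed replicate 2 (adjusted p = 0.0605), and had changes between -0.10 and 0.07 at the other 4 stages. Of the 11 sensors and membrane-bound factors listed, 3 were higher and 2 lower at 2 weeks, 1 was lower at 8 weeks, and none was called at 4, 6 or 20 weeks. The 2 that fell at 2 weeks were Creb3l4 (-2.18 ± 0.46) and Creb3l1 (-1.72 ± 0.36), membrane-bound relatives of ATF6. Creb3l4 in inflamed mucosa gave 16.6, 19.6 and 19.9, near the constant of 16 and below the table median. In normal mucosa it was uneven, at 225, 54.5 and 213.6, with replicate 2 also below that median. Its change was -2.82 with a constant of 1 and -1.36 with 64. Creb3l1 was also the factor lower at 8 weeks (-1.22, adjusted p = 0.0453), a call lost in 13 of 18 leave-outs. Atf6b and Creb3l2 rose by 0.64 and 0.79 at 2 weeks, and Creb3l2 lost its call without normal replicate 1, normal replicate 3 or inflamed replicate 2 (adjusted p up to 0.11). Beside these counts, 22.6% of all genes were called higher and 24.3% lower at 2 weeks.

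Xbp1, the factor made active by IRE1, gave 5180, 4054 and 4727 in normal and 6102, 5978 and 5807 in inflamed mucosa. All inflamed arrays lay above all normal ones, as did those of the summed plasma and B cell markers, yet the change of 0.36 ± 0.17 did not pass (adjusted p = 0.0865, 95% interval 0.01 to 0.72). Fitted on those 6 arrays alone it did (adjusted p = 0.0223), as it did without replicate 1 or 2 of 8-week HGD (0.0238 at the lowest). At 8 weeks Xbp1 gave 6892, 3725 and 5066, its widest spread (SD 1590). In the same 3 arrays the mean of 10 plasma and B cell markers was 1.34, -1.13 and 0.33 from normal, so both were highest in replicate 1 and lowest in replicate 2. The part of plasma cells in the Xbp1 values was not tested. Carcinoma gave 5486, 5669 and 6551, again above every normal array, with a change of 0.34 ± 0.17 (adjusted p = 0.283). The other 3 probe sets of Xbp1 had changes of 0.15 to 0.52 at 2 weeks, and 1 of them passed when probe sets were tested singly (0.52 ± 0.19, adjusted p = 0.0387). None of the probe sets is known here to tell the spliced from the unspliced messenger.

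Atf4, the factor of the PERK branch, had the largest rise of the members. It gave 1322, 1272 and 1339 in normal mucosa and 2203, 2501 and 2787 in inflamed mucosa, 1.89-fold higher (log2 change 0.92 ± 0.13, adjusted p = 5.05e-05). The groups did not overlap, and the call held in every leave-out (adjusted p up to 4.59e-04). A second probe set gave 0.96 ± 0.17 (adjusted p = 3.36e-04). On the main probe set no later stage was called against normal mucosa. LGD gave 1580, 1329 and 1539, 6-week HGD 1394, 1554 and 1206, 8-week HGD 1427, 1595 and 1439, and carcinoma 1394, 1780 and 1346. LGD was below inflamed mucosa by 0.74 ± 0.13 (adjusted p = 4.86e-04), and 8-week HGD by 0.74 (adjusted p = 4.61e-04). The probe sets disagree at 20 weeks, where the second was 0.75 ± 0.17 above normal mucosa (adjusted p = 0.0416) and the main one 0.19 ± 0.13 (adjusted p = 0.456). At 4, 6 and 8 weeks the second was 0.44 to 0.47 above, without passing. This second probe set was dimmer, at 492.6, 448.9 and 608.3 in normal mucosa. Another Atf4 probe set did not pass the filter on low signals.

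Ddit3, which encodes CHOP, the factor that links prolonged ER stress to cell death, did not rise with Atf4 beyond the test. Its signals were 416, 418 and 319 in normal and 388, 490 and 522 in inflamed mucosa, and these ranges overlap (0.27 ± 0.14, adjusted p = 0.134, 95% interval -0.03 to 0.57). The later groups gave 256, 268 and 325 in LGD, 250, 284 and 318 in 6-week HGD, 269, 269 and 290 in 8-week HGD and 237, 251 and 288 in carcinoma. From inflamed mucosa Ddit3 fell by 0.69 on the log2 scale in LGD (adjusted p = 0.00178) and by 0.72 in 8-week HGD (adjusted p = 0.00125). Against normal mucosa the 4 later stages had changes of -0.54 to -0.41, with adjusted p from 0.0534 to 0.135, and every array at 6, 8 and 20 weeks lay below the lowest normal array. The share of genes whose arrays do not overlap with normal mucosa was 35% at 6 weeks, 33.5% at 8 weeks and 31.5% at 20 weeks. A dimmer second probe set of Ddit3 did not pass against inflamed mucosa, with -0.31 ± 0.14 in LGD (adjusted p = 0.119) and -0.22 in 8-week HGD (adjusted p = 0.249).

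Trib3, a pseudokinase induced by ATF4 and CHOP, was dim. It gave 51.3, 72.3 and 82.5 in normal mucosa and 91.8, 97.3 and 117 in inflamed mucosa, with no overlap. The change of 0.49 ± 0.20 fell just short (adjusted p = 0.0544), and it passed under quantile normalization, under the mean of its probe sets and in a fit of the 6 arrays alone (adjusted p down to 0.0447). Carcinoma gave 86.3, 142 and 83.8 (0.49 ± 0.20, adjusted p = 0.214), with replicate 2 far above the others.

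Hspa5 encodes BiP, the chief chaperone of the ER, whose release from the sensors is part of how they are switched on. Its signals were 5176, 4419 and 4200 in normal mucosa and 5350, 6346 and 6479 in inflamed mucosa, where the lowest inflamed array was just above the highest normal one. The rise was 1.32-fold (log2 change 0.40 ± 0.11, adjusted p = 0.0106). LGD, at 5344, 6477 and 5838, covered nearly the same signals as inflamed mucosa, but its change of 0.36 ± 0.11 was not called (adjusted p = 0.0774, 95% interval 0.11 to 0.60), and without LGD replicate 2, the array with the high 3′ to 5′ ratio, it was 0.29 (adjusted p = 0.23). At 6 weeks Hspa5 gave 4724, 4071 and 4390, inside the normal range apart from its lowest array. At 8 weeks it gave 5947, 5238 and 5092, and in carcinoma 4499, 5476 and 5445. LGD and 6-week HGD did not overlap, with a difference of -0.42 ± 0.11 (adjusted p = 0.423). Dnajb9 and Creld2 did not overlap in that comparison either, which makes 3 of 10 members. There 0% of genes were called by limma, against 900 genes at an unadjusted p under 0.05, and 12.3% of genes had groups that do not overlap.

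A second Hspa5 probe set rose by 0.72 ± 0.15 at 2 weeks (adjusted p = 0.00157) and the dimmest had 0.25 ± 0.15, which did not pass (adjusted p = 0.212). In LGD the second probe set gave 1593.4, 1778.2 and 1988.1, against 1270.5, 1208.1 and 1241.1 in normal mucosa. These signals did not overlap, and the highest was in LGD replicate 3. The dimmest probe set gave 906.2, 887.1 and 666.5 in LGD, which overlapped 685.8, 743.8 and 878.9 in normal mucosa. The genes most like Hspa5 over the 18 arrays were Manf (r = 0.832), Myo9b (0.83), Adam19 (0.822), Samd11 (0.819) and Tpst2 (0.817). After removal of group means the highest correlation was again that of Manf, an ER-resident secreted factor, at 0.718. These are descriptions over arrays that share tissue make-up.

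Dnajb9 (ERdj4), a cochaperone of BiP, had closely spaced arrays in inflamed mucosa and LGD. It gave 926, 957 and 828 in normal mucosa, 1164, 1211 and 1175 in inflamed mucosa and 761, 769 and 775 in LGD. The inflamed arrays were above, and the LGD arrays below, every normal array. The 2-week rise was 1.31-fold (0.39 ± 0.10, adjusted p = 0.0065). From there Dnajb9 was lower by 0.61 ± 0.10 in LGD (adjusted p = 4.29e-04) and by 0.40 in 8-week HGD (adjusted p = 0.00719), where it gave 1034, 784 and 882. That last call was lost in a fit of the 6 arrays alone (adjusted p = 0.0769). At 6 weeks (907, 982 and 856) and in carcinoma (808, 868 and 933) Dnajb9 overlapped normal mucosa.

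Creld2, an ER protein of disulfide exchange that is induced by unfolded protein, was among the most variable members. Its signals were 738, 652 and 470 in normal mucosa and 749, 1539 and 1103 in inflamed mucosa, where replicate 1 was just above the highest normal array. The rise of 0.81 ± 0.31 (1.76-fold, adjusted p = 0.0435) was lost in 10 of 18 leave-outs, with adjusted p up to 0.189 without inflamed replicate 2, and also without inflamed replicate 3, normal replicates 2 and 3, LGD replicates 1 and 2, 6-week HGD replicates 1 and 2 and carcinoma replicates 2 and 3. LGD, at 937, 1064 and 862, lay wholly above normal mucosa (0.63 ± 0.31, adjusted p = 0.229). HGD went from 599, 568 and 426 at 6 weeks to 1452, 1244 and 578 at 8 weeks. The 8-week value was 0.72 ± 0.31 above normal mucosa (adjusted p = 0.133), and it passed without replicate 3 of that group (1.12, adjusted p = 0.0324).

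Sdf2l1, a partner of BiP and its J-domain cochaperones, gave 613, 435 and 431 in normal and 484, 600 and 837 in inflamed mucosa, overlapping ranges with a difference of 0.35 ± 0.24 (adjusted p = 0.258). Its highest array of all 18 was replicate 1 of 8-week HGD, at 993, against 617 and 571 in the other arrays of that group (0.52 ± 0.24, adjusted p = 0.164). In that array Xbp1 and Hspa5 were also the highest of the 3. Herpud1, a membrane protein of ER-associated degradation, gave 1170, 1484 and 1191 in normal and 1427, 1069 and 1003 in inflamed mucosa, and the 95% interval of its difference ran from -0.58 to 0.30. Its values over all 18 arrays lay between 793 and 1618, with the lowest in 8-week HGD replicate 2 and the highest in carcinoma replicate 3. Its second probe set had no call either.

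**Figure D3:**
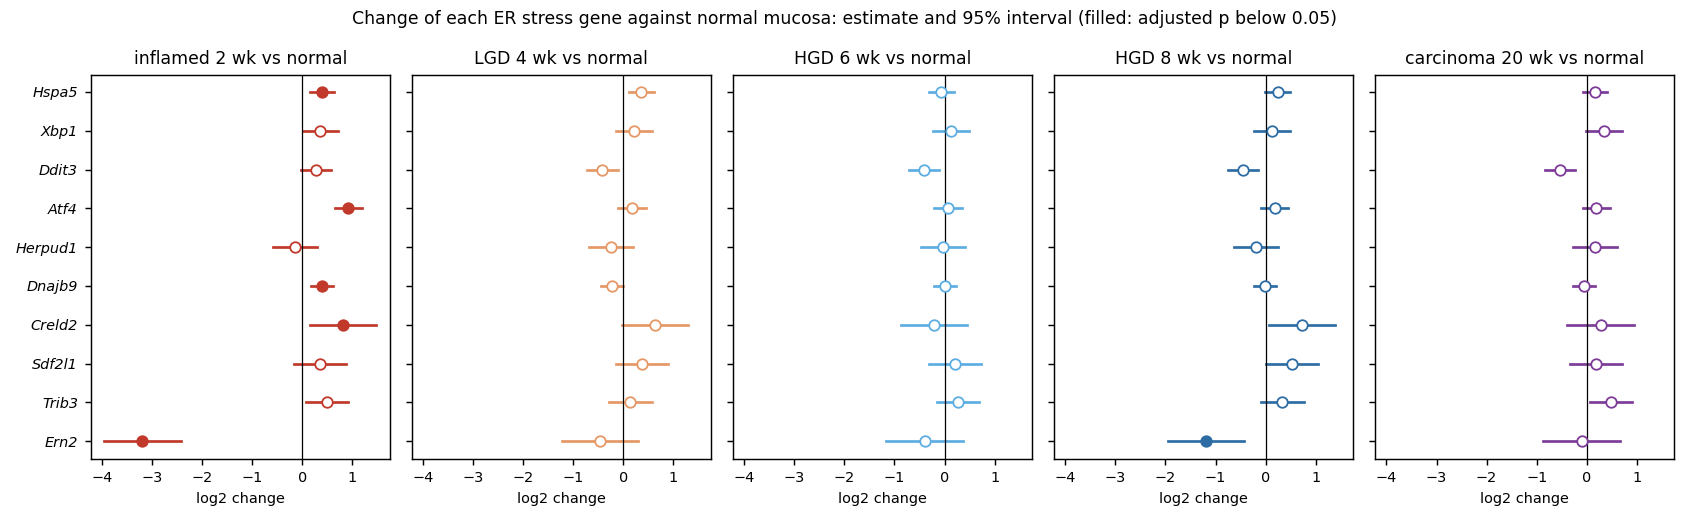
Log2 change of each of the 10 genes against normal mucosa in the 5 stages, with 95% intervals, filled where the adjusted p was below 0.05 (limma). At 2 weeks Atf4, Hspa5, Dnajb9 and Creld2 are filled to the right of 0 and Ern2 to the left at -3.19, and after that only Ern2 at 8 weeks is filled.

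At 2 weeks 7 of 10 members had groups that did not overlap, against 60.2% of all genes. At 4, 6, 8 and 20 weeks 3, 2, 3 and 4 members did not overlap with normal mucosa, against 30.3%, 35%, 33.5% and 31.5% of all genes. The median log2 change of the members was 0.37 at 2 weeks and between -0.0037 and 0.17 at the later stages, where the median of all genes lay between -0.02 and 0.03. LGD against inflamed mucosa called 4 members (Atf4, Ddit3 and Dnajb9 lower, Ern2 higher) and 36.3% of all genes, and 8-week HGD against inflamed mucosa called the same 4 members and 39.3% of all genes. In these comparisons 6 and 4 members had groups that did not overlap, against 45.9% and 44.9% of all genes, and the comparisons share the inflamed arrays. Between 6-week and 8-week HGD and between 8-week HGD and carcinoma, 0% of genes were called by limma, with 423 and 1422 genes at an unadjusted p under 0.05. In them 2 members (Hspa5 and Ern2) and 1 (Ern2) did not overlap, against 10.2% and 16.3% of all genes.

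The targets of ATF4 and CHOP were the largest of the 7 ER stress lists and had the most calls among them at 2 weeks. They import amino acids, make serine, glycine and asparagine, charge transfer RNAs and restore translation. Of 25 measured, 13 were higher and 2 lower at 2 weeks, with a median log2 change of 0.68 beside 0.01 over all genes. The shares of all genes called there were 22.6% higher and 24.3% lower. The list was chosen with earlier results of these data known, and the part of tissue make-up in its values was not tested. Ppp1r15a (GADD34), which brings the phosphatase back to eIF2alpha, gave 228, 209 and 197 in normal and 495, 546 and 610 in inflamed mucosa (1.31 ± 0.12, adjusted p = 2.75e-06). Ddit4, a brake on mTOR, rose by 1.31 ± 0.25, the factor Atf5 by 1.31 ± 0.19 and the amino acid transporter chain Slc3a2 by 1.23 ± 0.21. Gpt2, an alanine aminotransferase, and the C/EBP factor Cebpg were the ones that fell (-1.05 and -0.73). Both are named after their values were seen.

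At 4 weeks 7 of the 25 were higher and 0 lower (median 0.58), although Atf4 itself was not called there. Among all genes 2.61% were called higher and 3.08% lower at that stage. Slc7a5, the leucine transporter that pairs with Slc3a2, gave 172, 118 and 145 in normal mucosa and 393, 394 and 335 in LGD (1.29 ± 0.25, adjusted p = 0.0144). Asns (asparagine synthetase) gave 265, 239 and 261 in normal mucosa and 520, 592 and 643 in LGD (1.15 ± 0.20, adjusted p = 0.00963). Psat1 and Shmt2, of serine and glycine synthesis, rose by 1.17 and 0.84. The count at 4 weeks rests on few arrays. It was 0 without normal replicate 2, 1 without LGD replicate 2, 2 without normal replicate 3 or LGD replicate 1, and 4 without normal replicate 1, inflamed replicate 3, 6-week HGD replicate 1, 8-week HGD replicate 3 or carcinoma replicate 3. It was 2 in a fit of the 6 arrays alone.

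At 8 weeks 7 of the 25 were again higher and 1, Cebpg, was lower (median 0.43). Among all genes 4.84% were called higher and 6.42% lower at that stage. Asns gave 654, 591 and 560 (1.19 ± 0.20, adjusted p = 0.00558), a call that held in every leave-out. Psat1 rose by 1.21, Slc7a5 by 1.01 and Slc3a2 by 0.87. This count was 1 without normal replicate 2, 2 without normal replicate 3 or 8-week HGD replicate 3, and 4 without 8-week HGD replicate 2. At 6 weeks 0 of 25 were called (median 0.28), but 7 in a fit of the 6 arrays alone. In carcinoma Slc7a5 was called (231, 610 and 369, 1.29 ± 0.25, adjusted p = 0.0349), and that call was lost in 7 of 18 leave-outs (adjusted p up to 0.153). Chac1, whose product breaks down glutathione, had the largest value there without passing (1.43 ± 0.42, adjusted p = 0.1), and is named after its value was seen.

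**Figure D4:**
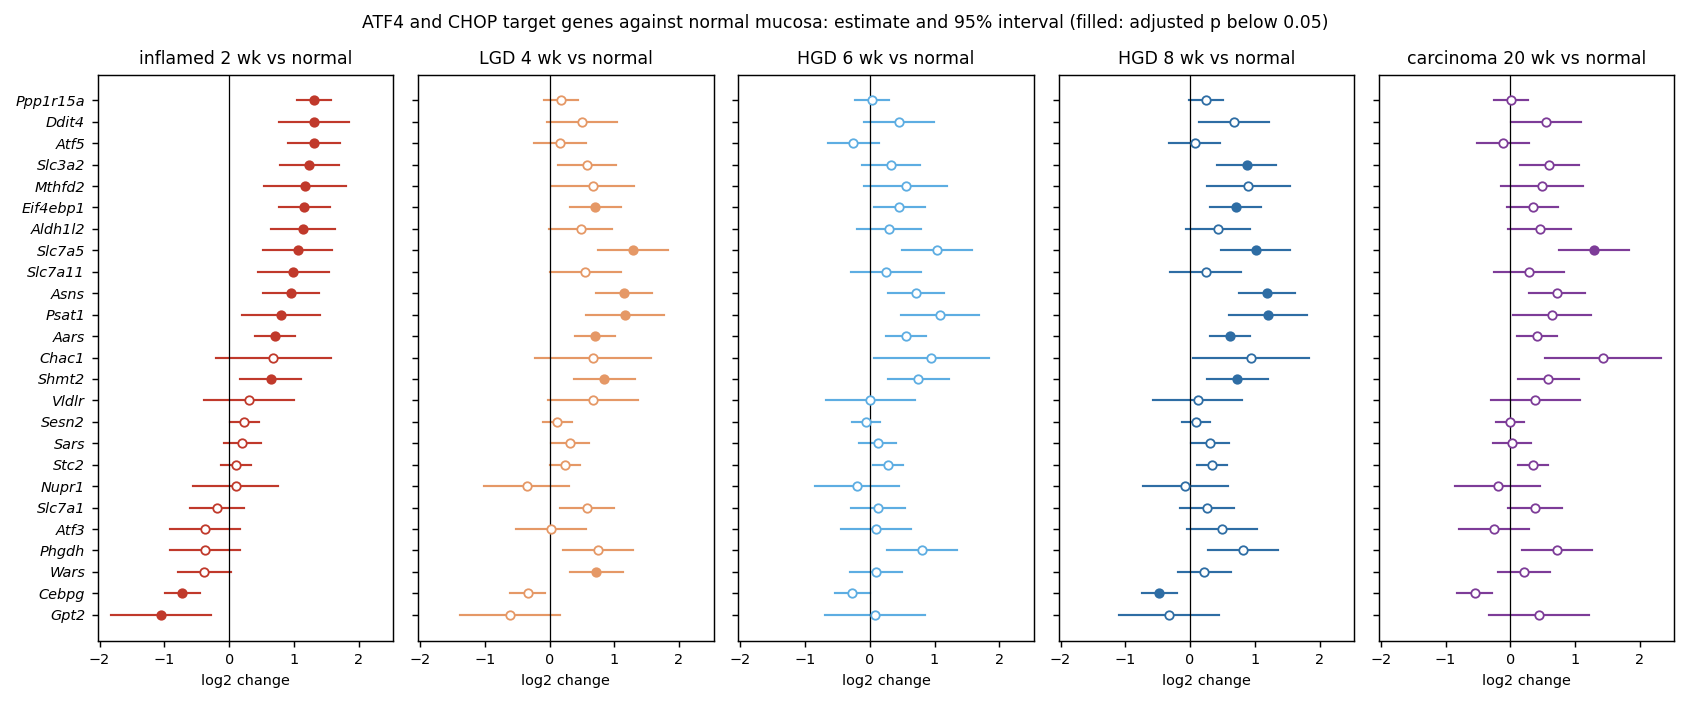
Log2 change of the 25 ATF4 and CHOP target genes against normal mucosa in the 5 stages, with 95% intervals, ordered by the 2-week change and filled where the adjusted p was below 0.05 (limma). Ppp1r15a, Ddit4 and Atf5 head the 2-week panel at 1.31 and lie closer to 0 later, while Slc7a5, Asns and Psat1 are filled at 2, 4 and 8 weeks.

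Of 3 further kinases and a phosphatase subunit, Eif2ak2 (PKR), the kinase that senses double-stranded RNA, fell by 0.72 ± 0.20 at 2 weeks (adjusted p = 0.00922), a call lost without normal replicate 2 (adjusted p = 0.0544), and none was called later.

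Of 24 further chaperones and folding enzymes, 6 were higher and 1 lower at 2 weeks, 2 higher at 4 weeks, 2 higher and 1 lower at 8 weeks and none at 6 or 20 weeks, with medians between 0.07 and 0.23. Of all genes 22.6% were called higher at 2 weeks, so 6 of 24 is near the background. At 4 and 8 weeks that share was 2.61% and 4.84%. Manf gave 2279, 1693 and 1942 in normal mucosa and 3148, 3683 and 3706 in inflamed mucosa (0.83 ± 0.16, adjusted p = 6.43e-04), and was also called at 4 weeks (0.61) and 8 weeks (0.54). Its later calls were lost in 7 and 12 of 18 leave-outs. The J-domain genes Dnajc1 and Dnajc3 rose by 0.66 and 0.64 at 2 weeks, and Dnajc3 did not pass under the mean of its probe sets. Pdia5, a disulfide isomerase, was the one that fell, by 1.29 ± 0.22 at 2 weeks and by 0.79 at 8 weeks (adjusted p = 3.01e-04 and 0.0386). The 2-week count of 6 was 10 without inflamed replicate 1, and the counts of 2 at 4 and 8 weeks ranged from 0 to 3 and from 0 to 4 over the leave-outs.

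In ER-associated degradation, 4 of 16 measured genes were higher at 2 weeks and none lower (median 0.27). The 4 of 16 is near the share of all genes called higher there, 22.6%, while 24.3% of all genes were called lower. Vcp, the ATPase that pulls proteins out of the ER, rose by 0.69 ± 0.11 (adjusted p = 2.05e-04), and it was called again at 4 weeks (0.42) and at 8 weeks (0.60, adjusted p = 0.0089, kept in every leave-out). The 4-week call was lost in 11 of 18 leave-outs. Edem1, a target of XBP1 that hands over misfolded glycoproteins, rose by 0.89 ± 0.34 (adjusted p = 0.0449), lost in 9 leave-outs, and Herpud2 by 0.43. Erlec1, a lectin of the same path, had 0.39, but its direction turned under the mean of its probe sets (-0.29, adjusted p = 0.064). The 2-week count of 4 was 2 without normal replicate 2, normal replicate 3 or inflamed replicate 2.

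Genes of ER translocation and glycosylation had 6 higher and 1 lower of 21 measured at 2 weeks (median 0.29), 1 higher at 4 weeks and 4 higher at 8 weeks. Those higher at 2 weeks included Kdelr3 (0.87, with overlapping groups), Spcs2 (0.43) and Ssr3 (0.34), which return ER proteins from the Golgi, cut signal peptides and assist the channel, and Kdelr2 was lower (-0.41). The count of 6 was 2 without normal replicate 2 or 3 and 1 without inflamed replicate 2. Sec61a1, the pore of the channel, was called at 4 weeks (0.38) and 8 weeks (0.41), as were Dad1 (0.66), Sec23b (0.44) and Sec61b (0.39) at 8 weeks. That count of 4 ranged from 0 to 5 over the leave-outs. The shares of all genes called higher were 22.6% at 2 weeks, 2.61% at 4 weeks and 4.84% at 8 weeks.

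Of the genes tied to cell death under ER stress, 6 of 8 could be tested. Casp12, a caspase of the ER membrane, rose by 1.00 ± 0.14 at 2 weeks (adjusted p = 5.07e-05), while Pmaip1 (Noxa, -1.40 ± 0.37, with overlapping groups), Bak1 (-0.44) and Bbc3 (Puma, -0.37) fell. Bak1 lost its call in 3 leave-outs (adjusted p up to 0.0843) and Bbc3 in 5 (up to 0.139). None of the 6 was called at a later stage. Beside these calls, 22.6% of all genes were called higher and 24.3% lower at 2 weeks.

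**Figure D5:**
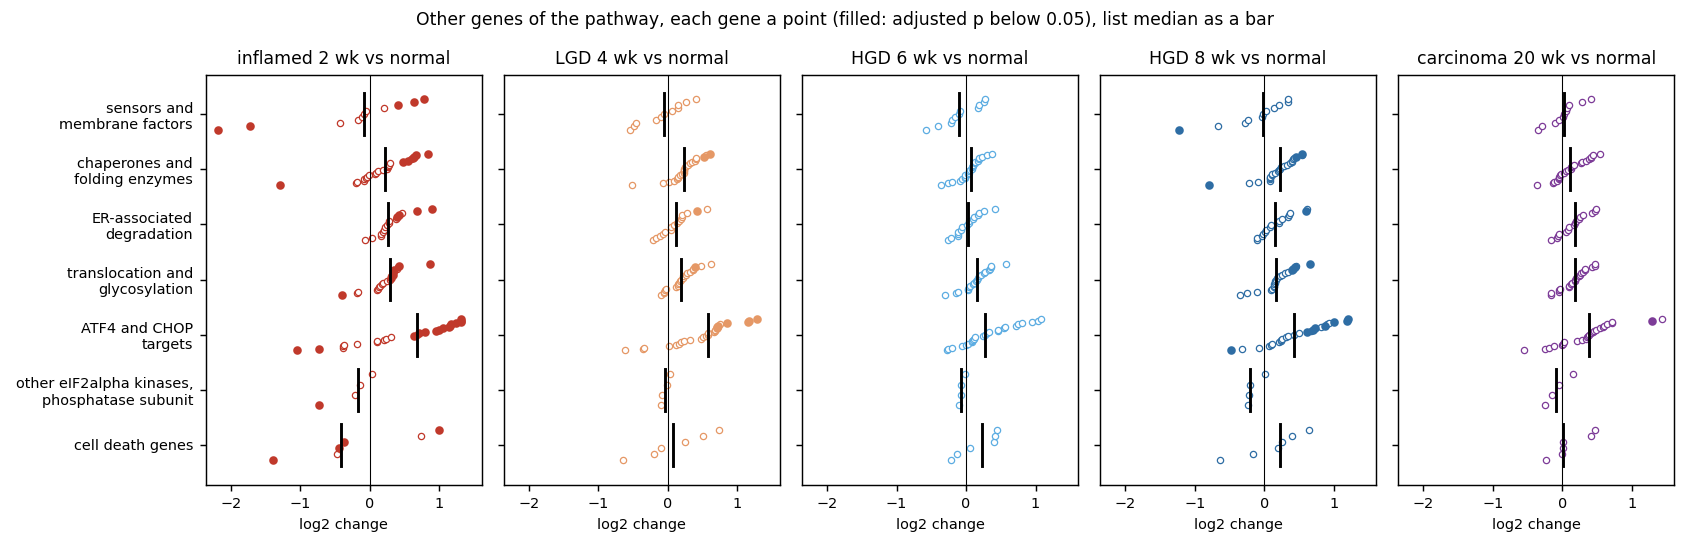
Log2 change against normal mucosa of the other genes of the pathway, by list and stage, with 1 point per gene (filled where the limma adjusted p was below 0.05) and the list median as a bar. The ATF4 and CHOP targets have the highest median of the 7 lists at each stage, 0.68 at 2 weeks and 0.28 to 0.58 later.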

How the data were processed

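Signal intensities of 18 arrays were deposited by the authors as 1 table of 45101 probe sets. MAS5 is the tool listed in the submitters' processing notes, while its role, version and settings were not given in the sources used here. Array medians were nearly equal, so no further normalization was applied. Probe sets annotated to exactly 1 gene were kept (34945), with at least 3 of 18 arrays above the table median (56.6), which left 21653 probe sets and, by the brightest probe set, 12877 genes. Log2(signal + 16) was fitted over all 6 groups with limma 3.58.1 in R 4.3.3 (lmFit, eBayes with trend), and p-values were adjusted by Benjamini-Hochberg over all genes, with a threshold of 0.05. The procedure was tested on simulated data with the same spread in every group, so that test does not cover groups of unlike spread. The members, lists and tests were chosen with earlier results of these data known. Besides the members, the genes named are, per list and comparison with normal mucosa, up to 4 called genes with the largest change, or the smallest p where none was called. The sensors Ern1, Eif2ak3 and Atf6 are always named, as are the 5 genes whose pattern over arrays was most like Hspa5 or Ern2. Some listed genes are not reported here. A p-value here sets a difference of means against only the spread between these samples, pooled over the 6 groups. The number of arrays limits the precision. Leaving out single arrays and 11 other settings were tried.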

Additional observations from a re-analysis of the deposited data

Results flagged for a closer look

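For 4 members the difference from normal mucosa at 2 weeks was itself different from that at 4 and at 8 weeks, tested directly as the contrast between the stages (limma adjusted p over all genes, 3 arrays per group). Atf4 was lower by -0.74 in LGD (adjusted p = 4.86e-04) and by -0.74 in 8-week HGD (adjusted p = 4.61e-04). Ddit3 differed by -0.69 (adjusted p = 0.00178) and -0.72 (adjusted p = 0.00125), and Dnajb9 by -0.61 (adjusted p = 4.29e-04) and -0.40 (adjusted p = 0.00719). Ern2 differed in the other direction, by 2.73 (adjusted p = 6.19e-05) and 2.00 (adjusted p = 5.99e-04). All genes showed such differences often, with 36.3% called between LGD and inflamed mucosa and 39.3% between 8-week HGD and inflamed mucosa, so 4 of 10 members is near the background. Both comparisons share the inflamed arrays.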

How the results depend on the processing

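Of 14 calls of members, 12 held in all 18 fits that each left out 1 array, and 11 under all 11 other settings. The number of members called at 2 weeks (5) ranged from 4 to 6 over the leave-outs and from 4 to 7 over the other settings. At 4 weeks it was 0 and ranged from 0 to 1 over the leave-outs, with Ddit3 called without LGD replicate 3 (-0.52, adjusted p = 0.0385). At 8 weeks it was 1 and ranged from 0 to 2 over the leave-outs. It was 0 with a constant of 1, with no filter, with only the 6 arrays compared and with the replicate block, and 2 under quantile normalization, median centring and the mean of the gene's probe sets. The cause was not tested. Ddit3 was the gene gained there (adjusted p down to 0.0414). Creld2 at 2 weeks was lost with no filter (adjusted p = 0.052). Erlec1 at 2 weeks reversed to -0.29 under the mean of its probe sets. Replicate numbers were not treated as pairs in the main fit. After removal of group means, the correlations of same-numbered arrays ran from -0.462 to 0.331 over 45 pairs, 11 of them over 0.1. Arrays of different numbers were not compared in this way, so the range cannot show whether the numbers pair the samples. With the replicate block 5 members were called at 2 weeks. Signals below the table median, such as those of Ern2 in inflamed mucosa, limit how far a fold can be read.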
